A study of Drosophila melanogaster with 4 samples.

Results

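Chains of closely spaced H3K4me2 regions were examined in embryos of Drosophila melanogaster. A chain was a run of 4 or more consecutive enriched regions on the same sequence in which every gap between neighbours was below 2000 bp. The members were selected on the region positions of the combined list, which the authors made from both ChIP replicates, on 2L, 2R, 3L, 3R, 4 and X. The rule gave 66 chains holding 296 regions, out of 5294 regions on these 6 sequences and 5383 in the whole list. All libraries came from whole wild-type embryos of the Oregon-R strain aged 14 to 16 h and therefore mix all tissues of the embryo. There were 2 ChIP libraries made with the H3K4me2-Abcam antibody and 2 input libraries made without an antibody, 1 for each ChIP. Each ChIP replicate had its own list of enriched regions, and the inputs had none. Nothing in the labels says whether the replicates were separate embryo collections, so the spread between them may be technical, and the sequencing depth is unknown.

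H3K4me2 is histone H3 dimethylated on lysine 4. In animals it is laid down by the Set1 and Trithorax families of methyltransferases and is found around the start sites and over the 5′ parts of active genes and at enhancers. In the compact Drosophila genome neighbouring genes often lie close together, so that marked stretches of different genes can follow each other at short distances. Regions of these lists carry no gene names. Positions are those of release 5 of the genome. The only gene table used here follows release 6, so chains were not placed in genes, exons, introns or UTRs, and no sequence is shown.

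The chains were long stretches with most of their bases marked. Their spans ran from 9628 bp to 42748 bp with a median of 19848.5 bp, and 35 of the 66 were longer than the widest single region of the list on these sequences (18765 bp). The members covered a median of 87.6% of a chain's span, with a lowest value of 68.2% and a highest of 98.3%. Together the chains spanned 1360 kb, 1.13% of the 6 sequences, and their members held 5.92% of all bases within regions. The gap limit bounds these shares from below, so they describe the chains and are no test.

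Most chains were of the smallest allowed size. Of the 66, 45 had 4 regions, 11 had 5, 9 had 6 and 1 had 7. Below the limit there were 163 runs of 3 regions, 685 runs of 2 and 3139 regions with no neighbour within 2000 bp. Applied to the replicates, the same rule gave 60 chains with 258 regions in replicate 1 and 63 chains with 271 regions in replicate 2, or 61.5 ± 2.12 chains (SD over the 2 lists). Replicate 1 had 44 chains of 4, 14 of 5 and 2 of 6 regions. Replicate 2 had 49 of 4, 10 of 5, 3 of 6 and 1 of 7. The number of runs thus dropped with each added region from 1 to 5 regions in every list, as the plot of runs by their length shows.

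**Figure D1:**
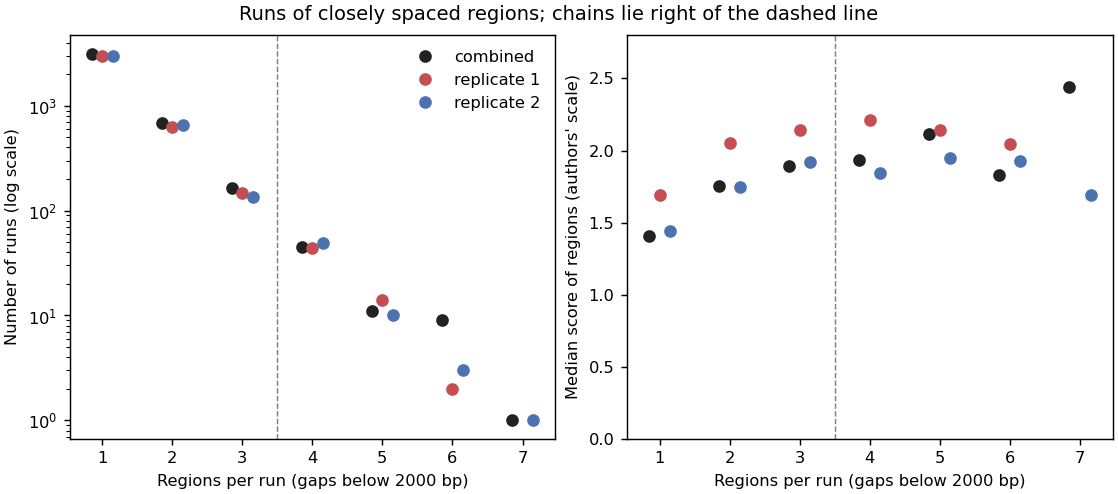
Left, the number of runs (log axis) by the number of regions they hold. Right, the median score of the regions in those runs on the authors' scale, in the combined list and both replicate lists. Runs of 4 or more, right of the dashed line, are chains. Counts decrease to 1 run of 7 regions in the combined list and in replicate 2, and single regions have the lowest median score in each list (1.41, 1.69 and 1.44).

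The 230 gaps inside chains, all below 2000 bp by the rule, had a median of 691 bp and quartiles of 236.25 and 1316.25 bp. The 1011 gaps within runs of 2 and 3 regions, which obey the same limit, had a median of 856 bp. Of the 230, 91 were below 500 bp and 23 below 100 bp. The narrowest was 3 bp and the widest 1992 bp. In 9 chains all gaps were below 1000 bp, while in 31 the largest gap was 1500 bp or more.

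The longest chain lay on 2R from 14020025 to 14062772, with 7 regions over 42748 bp and 81.4% of its span covered. In order along the arm, its members scored 2.63, 1.62, 2.07, 2.85, 2.68, 2.78 and 1.73 in replicate 1. In replicate 2 they scored 2.42, 1.51, 1.87, 2.41, 2.37, 2.59 and 1.31. All 7 regions were thus present in both replicates, and the second and the last were the weakest in each. The broadest member ran from 14042249 to 14051150 (8902 bp), with a combined score of 2.44. The gap after that member was 1778 bp in the combined list but 2741 bp in replicate 1 and 2837 bp in replicate 2. In replicate 2 the gaps on both sides of the second region also passed the limit, at 2529 bp and 2720 bp. Hence the longest unbroken run under this chain was 5 regions in replicate 1 and 3 in replicate 2, and replicate 2 held no chain there.

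A second long chain, on 3R from 7033737 to 7071785, had 5 regions over 38049 bp and was covered to 93.8%. It held the widest member of any chain, a region of 15558 bp from 7038453 to 7054010 with a combined score of 2.59. Its neighbours were a 4542-bp region before it (score 2.68) and a 10588-bp region after it (score 2.67). The chain ended in a 1283-bp region with the lowest score of any member, 0.12, which overlapped no region of either replicate, and a final 3703-bp region with a score of 2.24. The weak region was what joined the last region to the others. Around the weak region, replicate 1 had an empty stretch of 2931 bp, and that of replicate 2 measured 3042 bp. Both replicates still had a chain over the rest of it. Its median score was 2.78 in replicate 1 and 2.34 in replicate 2, and its combined median of 2.59 was the second highest of the 66.

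A pair of long chains stood near each other on 3R, 108 kb apart with 11 regions between them. The first, from 11029725 to 11057019 (27295 bp), had 6 regions that scored 0.75, 2.88, 2.20, 2.73, 2.33 and 2.51 in replicate 1. They scored 0.75, 2.43, 1.99, 2.34, 2.10 and 2.23 in replicate 2. The first region was the weak one in both lists. All 6 formed a chain in replicate 2, whereas in replicate 1 the middle gap of 1921 bp was 2038 bp wide and divided them into runs of 3 and 3. The second, from 11165442 to 11201714 (36273 bp), also had 6 regions, with combined scores of 1.53, 2.51, 2.31, 2.25, 2.07 and 0.32. Its last region, 1472 bp wide, was listed in replicate 1 alone (score 0.50). Its first gap was 21 bp in the combined list and 105 bp in replicate 1. Replicate 2 also had separate regions there, with the boundary at another place.

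On 3L, the chain from 3034362 to 3062368 had 6 regions over 28007 bp and formed a chain of 6 in each replicate. Its scores were 1.68, 2.39, 3.06, 2.08, 1.73 and 2.34 in replicate 1 and 1.51, 1.72, 2.39, 1.77, 1.42 and 1.88 in replicate 2. The same region was the highest in both, and the same pair of regions were the lowest. On 2L, the chain from 10371442 to 10398927 also had 6 regions, but 2 of them, with combined scores of 0.43 and 0.21, were absent from replicate 2. The longest run there was 2 regions in replicate 2 and 5 in replicate 1, and the last gap passed 2000 bp in both. The longest chain of 2L, from 5037259 to 5066253 (28995 bp), had 5 regions and was a chain of 5 in each replicate. Its last region was the weakest, at 0.75 in replicate 1 and 0.56 in replicate 2. The 28308-bp chain on 2L from 19027887 to 19056194 had 4 regions, and its widest, of 10498 bp, was divided in replicate 2, which listed 5. On X the longest chain ran from 17719406 to 17747677 (28272 bp) with combined scores of 1.61, 1.18, 0.46, 2.55 and 2.77. It was a chain of 5 in replicate 1. Replicate 2 lacked the region of 0.46 and had no chain there.

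**Figure D2:**
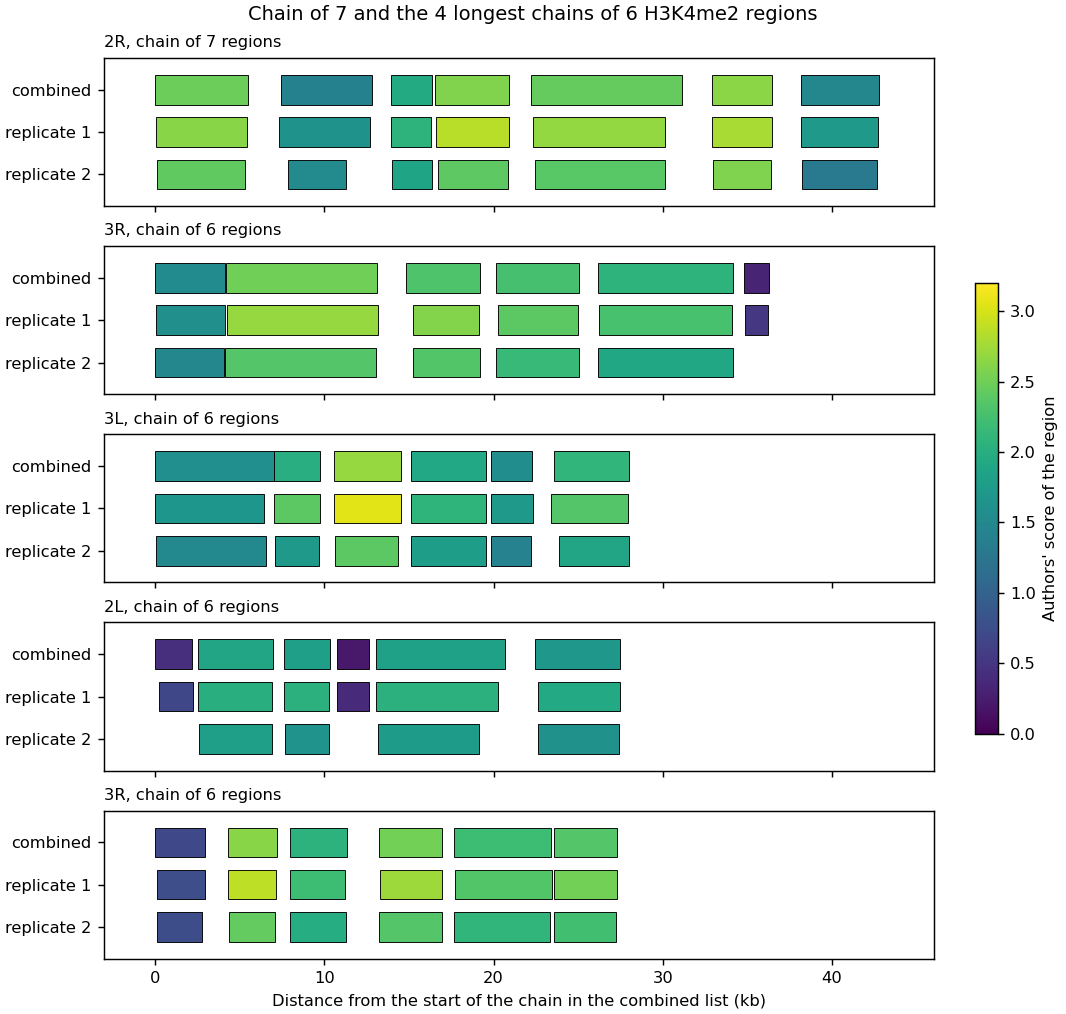
Regions of the combined list and of both replicate lists over the chain of 7 regions and the 4 longest of the 9 chains of 6 regions, drawn by distance from the start of the chain (kb) and coloured by the authors' score. In these 5 chains the 3 combined regions with no counterpart in replicate 2 are weak ones, the last of the second chain (combined score 0.32) and a pair in the chain on 2L (0.43 and 0.21).

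In the combined list, the 3 most densely covered chains were not among those with the highest scores. The most densely covered chain lay on 2L from 6461012 to 6482800 (98.3% of 21789 bp), with gaps of 87 to 161 bp, and had a median score of 0.82. A 12691-bp region of score 1.79 and a 6170-bp region of score 1.28 alternated in it with 2 regions of 0.36 and 0.29 that overlapped no replicate region. The chains on 3R from 12811083 to 12823992 (97.5% covered, median score 1.10) and on 2R from 5719061 to 5737506 (95.5%, median 1.46) came next. Thus none of the 3 densest chains reached the median member score of 1.95. The next densest, on 2L from 6955394 to 6972592 (94.6%), did, with a median of 2.13. Regions of replicate 1 covered 84.4%, 80.2% and 94.1% of the spans of the 3 densest. Those of replicate 2 covered 79.0%, 79.1% and 92.7%. The sparsest were on 2L from 10470981 to 10484707 (68.2%), on 3L from 21185170 to 21200286 (72.5%) and on X from 379654 to 395963 (72.8%), with median scores of 0.71, 0.62 and 1.44.

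Near the gap limit, the last region of the chain on 2R from 13467328 to 13482281 was joined by a gap of 1992 bp. This gap was 2098 bp in replicate 1 and 1995 bp in replicate 2. The chain also rested on a 1479-bp region of score 0.19 found in neither replicate. Around that region the replicates had empty stretches of 2070 bp and 2091 bp, and neither had a chain there. On X, a gap of 1979 bp joined the first region of the chain from 20105324 to 20129130 to 4 others. That gap passed 2000 bp in both replicates, which kept a chain of 4 there. The chains on 2R and X had median scores of 1.58 and 1.95. Just outside, a gap of 2012 bp kept a run of 3 and a single region apart on 3L from 3805036 to 3820333 (median score 1.72). A gap of 2023 bp kept runs of 3 and 2 apart on 2L from 10244901 to 10271577 (median 1.98). The share covered was 82.9% and 75.9% in these chains, against 84.2% and 88.2% in the runs just outside.

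Chain members had higher scores than the other regions of the same sequences. In replicate 1 the median was 2.19 for members of its own chains and 1.84 for its other regions, and in replicate 2 it was 1.87 and 1.58. The differences of 0.35 and 0.29, with a mean of 0.32 ± 0.041 (SD over the 2 lists), were several times their spread between replicates. In the combined list it was 0.39, with medians of 1.95 and 1.56. Runs of 3 regions, counted among the others, had medians of 2.14 in replicate 1 and 1.92 in replicate 2. Higher scores were thus not particular to chains. Positions and scores come from the same libraries, so no test is given, and the score is the authors' own value on an unstated scale. Members were also wider, with medians of 3552 bp against 3116.5 bp in the combined list. By quartile of width, narrowest first, the combined score difference was 0.041, 0.39, 0.39 and 0.084, so that it was small among the narrowest and the widest regions.

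Members were more often found at high scores. Of the 296 members, 139 scored 2 or more, made up of 96 between 2 and 2.5 and 43 from 2.5 upwards. These were 32.4% and 14.5% of members, against 23.2% and 8.34% of the other 4998 regions. Between 1 and 1.5 there were 19 members (6.42%), against 14.4% of the others. At the low end 72 members (24.3%) scored below 1, against 33.5% of the others. Within each replicate's own list, 34.9% of members and 23.9% of others in replicate 1 scored between 2 and 2.5. In replicate 2 these shares were 33.9% and 23.7%. From 2.5 upwards they were 27.5% and 19.6% in replicate 1, but 4.80% and 4.47% in replicate 2, where the difference was small. By run length, the median combined score was 1.41 for single regions, 1.75 in pairs, 1.90 in runs of 3 and 1.93 in chains of 4. It was 2.11 over 55 regions in chains of 5 and 1.83 over 54 regions in chains of 6. Most of the step thus lay between single regions and pairs, and among chains the score did not go up steadily with length.

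In the combined list, scores within a chain were rarely alike. The median chain had a range of 1.61 between its highest and lowest member and an SD of 0.74, beside an SD of 0.78 over all other regions. In 54 of the 66 chains the range exceeded 1, and in 2 it was below 0.5. A member of 2 or more stood in 60 chains and a member below 1 in 46, and 40 chains held both kinds. In replicate 1, 31 of its 60 chains held both and in replicate 2, 24 of its 63. The median chain of replicate 1 had a range of 1.63 and an SD of 0.71, beside 0.79 over its other regions. In replicate 2 the range was 1.28 and the SD 0.54, beside 0.67. The range was below 0.5 in 4 chains of replicate 1 and 8 of replicate 2.

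The smallest range of the 66, 0.27, was that of a strong chain on 2L from 13364160 to 13389073. Its 5 regions scored 2.69, 2.87, 2.60, 2.52 and 2.41 in replicate 1 and 2.27, 2.30, 2.44, 2.23 and 2.23 in replicate 2. Its combined median of 2.47 was exceeded in 2 chains. The highest median, 2.60, belonged to the chain on 2R from 4776438 to 4797000. That chain also had one of the widest ranges, with combined scores of 2.52, 0.38, 3.17 and 2.68, and its weak region of 1046 bp overlapped no replicate region. In the widest range but one, on X from 6169075 to 6196144, neighbours of 3.12 and 3.10 stood beside a 1139-bp region of 0.46. On 2L from 3448896 to 3470870, a 1698-bp region of 0.15 lay between regions of 2.72 and 2.64. In all 3 the weakest member was narrow and was found in neither replicate.

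Chains of low score were few. The lowest median, 0.46, was that of the chain on X from 17631492 to 17641119, the shortest of the 66 at 9628 bp. A 4635-bp region scored 1.97 in replicate 1 and 1.72 in replicate 2. The 3 regions after it scored 0.41, 0.37 and 0.50 in the combined list, and replicate 2 had none of them. On 3L, the chain from 3932137 to 3944817 (median 0.62) was a chain of 4 in each replicate. A 2524-bp region stood out with 2.10 in replicate 1 and 1.99 in replicate 2, while its last scored 0.91 and 0.87. The 3L chain from 21185170 to 21200286 (median 0.62) was also met by a chain in both. Replicate 1 had 5 regions there. Replicate 2 had 4 but lacked the first member, and its chain covered 77.7% of the span. Of the 3 chains with the lowest median, 2 were thus chains in both replicates and 1 in neither.

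**Figure D3:**
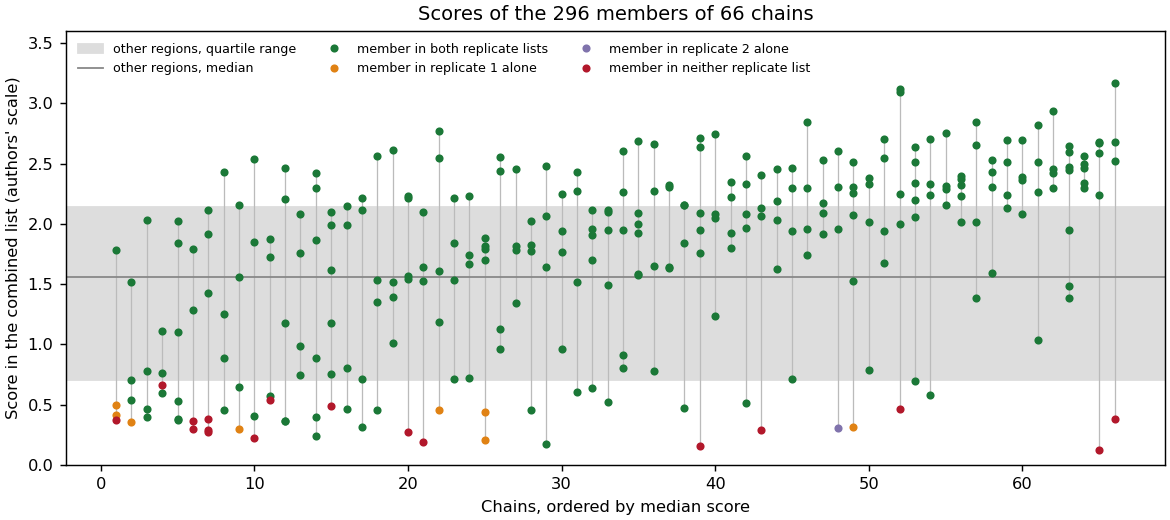
Combined score of every member (points, authors' scale) in the 66 chains, ordered by their median score, with a grey line from the lowest to the highest member. Colours give the replicate lists that a member overlaps, and the grey band is the quartile range of the 4998 other regions (0.70 to 2.14, median 1.56). No member missing from a replicate list scores above 0.66.

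Neighbouring members were somewhat closer in score than distant neighbours. Adjacent members differed by a median of 0.57 in replicate 1 and 0.44 in replicate 2, or 0.51 ± 0.087 on average (SD over the 2 lists). Neighbours in runs of 2 or 3 differed by 0.61 and 0.54. For neighbours 10000 bp or more apart it was 0.76 and 0.64. Adjacent members were the closest of these classes in both lists, but the values of chains and of the shorter runs overlapped between replicates. In the combined list the values were 0.57 over 230 pairs in chains, 0.58 over 1011 pairs in runs of 2 or 3, 0.68 over 1912 pairs from 2000 to below 10000 bp apart and 0.73 over 2135 pairs farther apart. As a description across pairs of regions, which share libraries and an arm, the Spearman rho of adjacent scores was 0.23, 0.22, 0.12 and 0.063 in these 4 classes.

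Inside chains, the score difference followed no steady order with the width of the gap. Adjacent members differed by a median of 0.64 across 52 gaps below 200 bp, 0.48 across 39 gaps from 200 to below 500 bp, 0.52 across 49 gaps from 500 to below 1000 bp and 0.63 across 90 wider gaps. Members 2 places apart differed by a median of 0.66, by 0.56 in replicate 1 and by 0.43 in replicate 2. Those 3 places apart differed by 0.75, by 0.91 in replicate 1 and by 0.66 in replicate 2, more than adjacent members in every list. End members and inner members had similar medians, 1.92 for the 132 ends and 1.96 for the 164 inner ones, and median widths of 3448.5 bp and 3606 bp. The highest score was that of an inner member in 34 of the 66 chains and the lowest in 31. The widest member had the highest score in 20.

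**Figure D4:**
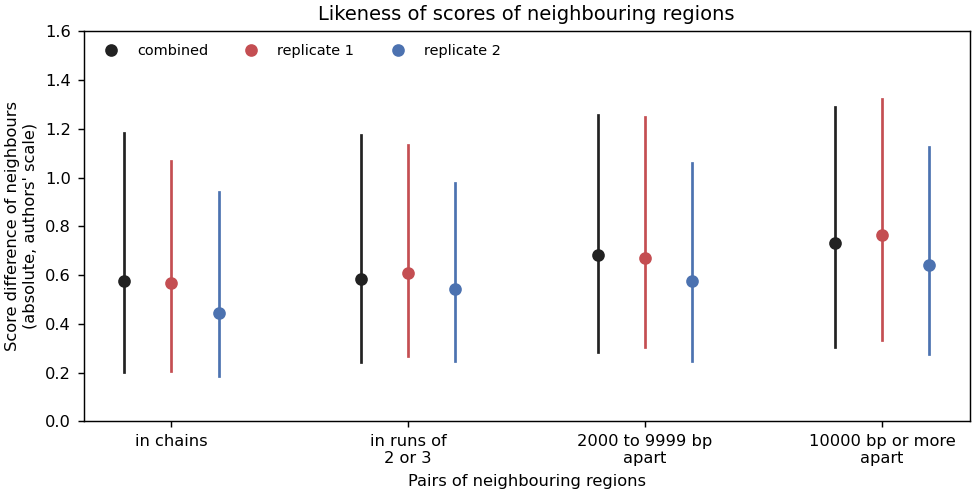
Absolute score difference between neighbouring regions (authors' scale) in 4 classes of pairs, as median (point) and quartile range (line), for the combined list and both replicate lists. Medians go from 0.57 in chains to 0.73 at 10000 bp or more in the combined list, and the quartile ranges overlap throughout.

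Chains were found on all 5 large arms, and the small chromosome 4 had none. Chromosome 4 has 58 combined regions over 1.35 Mb. All 6 sequences together had 0.55 chains per Mb and 5.59% of regions in chains. The absence of a chain on so small a sequence therefore says little about it. In the combined list 3R had 19 chains, 3L had 14, 2R had 13, and 2L and X had 10 each. The share of an arm's regions that lay in chains was 5.90% and 6.43% on 3R (replicate 1 and replicate 2), 5.82% and 6.48% on 3L and 4.97% and 5.87% on 2R. It was 5.03% and 4.12% on 2L and 4.26% and 3.95% on X. The X had the lowest mean, 4.10% ± 0.22 (SD, n = 2), next to 4.58% ± 0.64 on 2L, from which it did not differ beyond their spread. The 4 autosomal arms together had 5.46% in replicate 1 and 5.82% in replicate 2, above the X in each list. No test is given, since the chains come from 2 lists of 1 group.

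The share of short gaps on X was similar to that on the other large arms. Gaps below 2000 bp made up 23.3% (replicate 1) and 23.0% (replicate 2) of all gaps on X. They made up 21.9% and 22.4% on 2L, 23.3% and 23.3% on 2R, 22.2% and 22.2% on 3L and 22.8% and 23.4% on 3R. On chromosome 4, 11 of the gaps between its 58 combined regions were below 2000 bp and its longest run was 3 regions. Its share of gaps below 2000 bp was 15.4% in replicate 1 and 15.7% in replicate 2, the lowest of the 6 sequences.

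**Figure D5:**
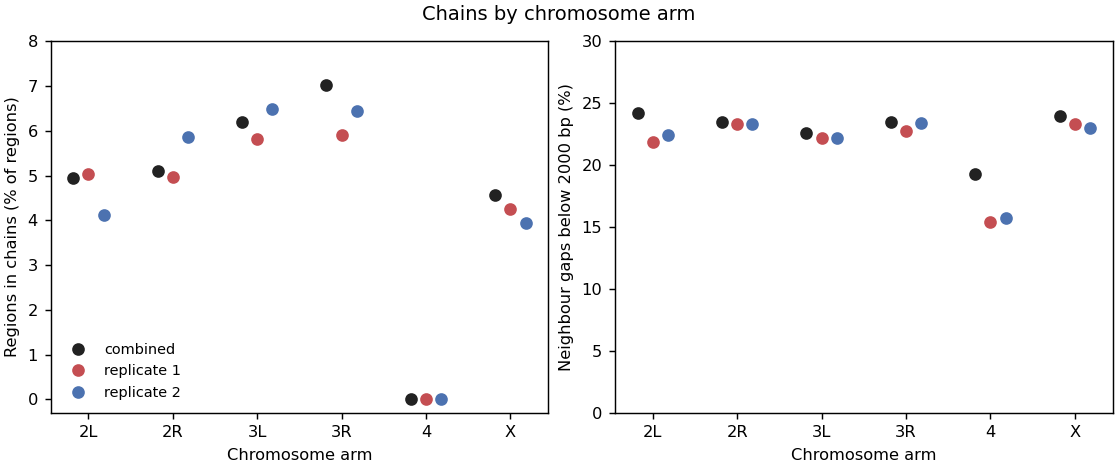
By chromosome arm, the share of regions that lie in chains (left, %) and the share of gaps between neighbouring regions below 2000 bp (right, %), in the combined list and both replicate lists. Chromosome 4, with only 58 combined regions, has no chain. X has 4.57% of its combined regions in chains although its share of short gaps (23.9%) is similar to that of the other large arms.

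Along the arms the chains were scattered. Of 120 windows of 1 Mb, 69 held no chain, 36 held 1 and 15 held 2, and no window held more. Windows with a chain had a median of 53 regions, against 39 in windows without. The regions counted include the chain members, and the rule used the same positions, so this difference is a description and no test. Neighbouring chains lay a median of 993 kb apart, and 4 pairs lay within 100 kb. The closest pair was on 3L, where 57.2 kb and 4 regions separated the chains from 15491176 to 15511635 and from 15568825 to 15585405. Within 2 Mb of the centromeric end of the 5 large arms there were 2 chains with 8 members, both on 3R. These were 2.70% of members, against 5.60% of all 5236 regions on those arms. The nearest began at 212559 on 3R.

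The ends of chains were not isolated either. From a chain's end to the next region the median distance was 7529.5 bp, against 9118 bp for runs of 2 and 3 and 11291.5 bp for single regions. In replicate 1 these were 7335.5, 9743 and 11787 bp and in replicate 2 they were 7932, 9763 and 11821 bp, so that the order was the same in both. Of 132 chain ends, 55 (41.7%) had another region less than 5000 bp away. The share was 29.8% for ends of runs of 2 and 3 and 24.1% for ends of single regions. In replicate 1 these shares were 39.2%, 28.2% and 23.8%, and in replicate 2 they were 34.9%, 28.1% and 23.4%.

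Most members recurred in the replicates. Of 296 members, 270 (91.2%) overlapped a region of both replicate lists by at least 1 bp, against 88.8% of all 5294 regions, so the members' share lay near that of the whole list. Replicate 1 alone had 8 others, replicate 2 alone had 1, and 17 had no counterpart in either list. The 26 members not found in both were weak and narrow, with a median score of 0.34, a highest of 0.66 and a median width of 1331.5 bp, and lay in 20 chains. Members found in both had a median score of 2.02. Missing regions outside chains were not compared, so weakness and narrowness are not shown to be particular to missing members. The replicate lists held no region narrower than 1302 bp and 1305 bp, whereas 12 members were narrower than 1300 bp, and 11 of the 17 missing from both lists were among these 12. The part of this width limit in the missing members was not tested. The combined list is made from the same libraries, so these overlaps are no independent support.

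Few gaps between members were covered by a region in the replicates. Of the 230 pairs of neighbouring members, 1 lay mainly within a single region of replicate 1 and 0 did in replicate 2. That pair opened the chain on 3L from 6173090 to 6188434, with a gap of 3 bp in the combined list, and replicate 2 kept its regions apart by 212 bp. Replicate 1 had a region over the whole of 3 gaps and replicate 2 over 4, none wider than 93 bp. In 6 of these 7 cases the replicate had both regions, with the boundary between them moved. Elsewhere gaps tended to be wider in the replicates, with a median widening of 80 bp in replicate 1, while replicate 2 had one of 172 bp. None of the 178 gaps of 200 bp or more was covered entirely in either replicate.

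Of the 66 chains, 52 were met by a chain in replicate 1, and replicate 2 had a chain at 48, a mean of 50.0 ± 2.83 (SD over the 2 lists). In each case the replicate's chain covered at least 50% of the span. For 44 chains this held in both replicates, for 12 in 1 and for 10 in neither. The number of regions was the same in 40 chains of replicate 1 and 39 of replicate 2. Where a replicate had no chain, a member it lacked stood in 11 of 14 chains in replicate 1 and in 14 of 18 in replicate 2. Among all 66 chains, 15 held a member that replicate 1 lacked and 19 held one that replicate 2 lacked. Of the 230 combined gaps, 30 lay in an empty stretch of 2000 bp or more in replicate 1 and 47 in replicate 2. Such a missing member bordered 22 and 35 of these. An empty stretch is counted once for each combined gap it spans. A missing inner member thus enters more than once, and these gaps are not separate cases. When regions found in both replicates were kept and the others left out, 49 chains with 215 regions formed and 17 were lost. A clear case was on 3L from 15491176 to 15511635, where 3 weak regions of 1113, 1078 and 1176 bp (scores 0.27, 0.38 and 0.29) extended a run of 3 to 6 and both replicates had 3 regions.

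The replicates also had chains of their own. Replicate 1 had 8 and replicate 2 had 15 that met no combined chain, and 5 of these were found in both. The combined list had a run of 3 regions at all 23, where the replicate had 4. The 5 seen in both began at 18693569 on 2L, 9839030 and 14508848 on 2R, 1295008 on 3L and 15736303 on X (positions of replicate 1). Between the replicates themselves, 49 of the 60 chains of replicate 1 (81.7%) met a chain of replicate 2, and 49 of the 63 of replicate 2 (77.8%) met one of replicate 1. The shared span was 930 kb, a Jaccard index of 0.66.

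Scores of members differed between the replicates much as those of other regions did. Over 242 members matched one to one in both lists the score was higher in replicate 1 for 230 (95.0%), against 90.9% of all 4453 matched regions. The median difference, replicate 1 minus replicate 2, was 0.31 for members (SD over members 0.17) and 0.26 for the 4211 other matched regions (SD 0.18). The direction of a step from one member to the next was the same in both replicates for 145 of 157 pairs. Pairs outside chains were not counted in this way, so this is not shown to be particular to chains. Across matched regions, the Spearman rho of the 2 replicate scores was 0.97 for members and 0.98 for the others. Of the 72 pairs whose combined scores differed by more than 1, 35 had a score for both members in both lists, and their steps had the same direction in all 35. The other large steps could not be compared in this way, and the combined score is made from both replicates.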

How the data were processed

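ChIP-seq of H3K4me2 was available for 2 replicates, with 1 input each. The deposited data were 3 lists of enriched regions in GFF format, on FlyBase release 5 per the file headers. The score of each region is the authors' deposited value, and the sources used here do not give its scale, the aligner, the region caller and its threshold, or the way replicates were combined. Reads behind the lists were not counted here, so no depth or interval is given.

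Neighbouring regions were joined when the gap (next start minus previous end minus 1) was below 2000 bp, with Python 3.11.15, numpy 2.4.6, pandas 2.3.3, scipy 1.17.1 and matplotlib 3.10.9. Finding of chains was tested on simulated data with planted chains. Regions overlapped when they shared at least 1 bp. A member counted as matched where it and a single replicate region overlapped each other and nothing else. No p-value was computed, since the lists hold 2 samples of 1 group. Individual chains were chosen by rule: most regions, longest, highest and lowest score and cover, widest score range, and nearest the gap limit. A few further chains were named as examples with their values already known. The rule and all lists were chosen with earlier results of these data known. Alternatives changed the gap limit, the chain size and the regions used.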

Additional observations from a re-analysis of the deposited data

How the results depend on the processing

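Counts of chains and members depended on the limits that define them. With gaps below 1000 bp there were 15 chains with 66 members, and with gaps below 3000 bp there were 136 with 630. With at least 3 regions there were 229 chains with 785 members, and with at least 5 there were 21 with 116. The upper 50% of scores gave 20 chains with 85 members, and merging of regions less than 500 bp apart gave 23 with 99. The median share covered was 92.6%, 81.1%, 88.7% and 80.0% with gaps below 1000 bp, gaps below 3000 bp, the upper 50% of scores and merging. The score difference between members and other regions was positive under every alternative. It was 0.23 with gaps below 1000 bp, 0.15 in the upper 50% of scores, 0.34 among regions overlapping both replicate lists and 0.22 within width quartiles, and 0.32 to 0.36 with the scores of a single replicate. The median score difference of adjacent members was 0.48 with at least 5 regions and 0.32 in the upper 50% of scores. Of 43 alternative values, 20 stayed within the spread between replicates or, for counts, within 1.5 times the value given, among them those for members and chains found in the replicates. Chains recovered without 1 replicate numbered 48 to 52. These are the counts of the single replicate lists, whose mean of 50.0 is the value given. They are counted among the 20 but are no independent check. No paired analysis was possible because the inputs have no list of regions and no test was made. The depth is unknown, and whether members missing from a replicate lay below its detection limit was not tested.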

Other observations

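Outside the 6 sequences, on the heterochromatic and unplaced sequences, the combined list had 89 regions and no run longer than 2. In both replicates the longest run there was also 2, among 77 regions in replicate 1 and 69 in replicate 2. Broad regions showed no common direction, with 15 of 296 members (5.07%) wider than 8000 bp, against 4.54% of the other regions of the combined list, and these 15 lay in 14 chains. In replicate 1 the shares were 3.10% and 4.29%, and in replicate 2 they were 2.58% and 3.28%, so that both replicates had the lower share in chains. Width and score were related in both sets, with a Spearman rho across regions of 0.60 for members and 0.71 for the others, as a description over regions that are not independent. Runs that would have made a chain but for 1 gap were common, with 56 pairs of neighbouring runs, each shorter than 4 regions, kept apart by a gap between 2000 and 3000 bp.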
